A study of Homo sapiens with 10 samples.

Results

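Cystine uptake and glutathione metabolism were followed through 9 genes matched on gene symbol: SLC7A11, GCLC, GCLM, GSS, GSR, GPX1, GPX2, GPX4 and GSTP1. They were chosen by name with earlier results of these data known, so counts of calls among them are descriptive. All 9 were found, each as a single entry, among 36498 genes. The cells were AsPC-1, a cell line that grew out of a pancreatic ductal adenocarcinoma. The control group (5 libraries) was kept for 24 h in complete RPMI medium, and the starved group (5 libraries) for 24 h in RPMI without glutamine whose 10% serum had been dialysed, a step that removes small molecules. The labels describe routine culture with 10% fetal bovine serum, 1 mM pyruvate and antibiotics, and do not say whether the serum of the control medium was dialysed as well, so effects of glutamine and of serum dialysis cannot be told apart here. They name no clone, genotype change or drug, and do not say whether replicates were separate cultures, so p-values measure only the spread between these libraries.

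Glutathione is a tripeptide of glutamate, cysteine and glycine and the main thiol buffer of the cell. Cysteine for it enters mostly as cystine, through an antiporter that pays for each cystine with a glutamate, and glutamate in turn is made largely from glutamine. Glutathione is built by glutamate-cysteine ligase and glutathione synthetase, spent by peroxidases and S-transferases, and returned to its reduced form by glutathione reductase with NADPH. Pancreatic ductal adenocarcinoma cells are known to depend on cystine import and on this system for their defence against lipid peroxides.

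Glutamine-starved cells carried less transcript of the cystine carrier SLC7A11 (23.0% of the control mean), of glutathione reductase GSR (17.1%), of the peroxidases GPX1 (44.7%) and GPX4 (76.3%) and of the S-transferase GSTP1 (51.4%). The genes of glutathione synthesis itself, GCLC, GCLM and GSS, did not pass the test in either direction. SLC3A2, which encodes the partner chain of the cystine carrier, rose 4.13-fold. Of the 9 genes 8 had a mean of at least 5 CPM (counts scaled to the same sum in every library) and were tested, with GPX2 the exception. In the fit across 11202 genes (limma-trend on log2(CPM + 1), Benjamini-Hochberg adjusted p under 0.05), 5 of the 8 were lower in starved libraries and 0 were higher, whereas 26.1% of all tested genes were lower and 17.2% higher. The median log2 change was -0.85 over the 8 genes and -0.22 over all tested genes. In 4 of the 8 every starved library lay below every control library, as in 17.9% of all tested genes; the opposite order, found in 12.5% of all tested genes, occurred in 0 of the 8.

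These were shallow libraries made from transcript 3' ends, with 141763 to 474619 counts in control and 164008 to 593248 in starved libraries, so that a single count was worth 1.69 to 7.05 CPM. All values are shares of a library's mRNA, and fewer cells and less RNA per cell cannot be told apart in bulk samples. Of 14 ductal epithelial markers 13 were in the table and all 13 had counts; their summed level was 13992 to 15029 CPM in control and 2908 to 3124 CPM in starved libraries, a fall carried by keratins and CEACAM6, and its part in the results below was not tested. Acinar markers summed to 0 to 5.31 CPM over all libraries, with 8 of the 10 in the table at 0, among them PRSS1, CPA1 and AMY2A. Fibroblast markers summed to 84.6 to 157 CPM in control and 26.5 to 37.2 CPM in starved libraries, with LUM the only tested gene of 9 and COL3A1, DCN and PDGFRA at 0. Leukocyte markers summed to 96.9 to 141 and 74.4 to 122 CPM, nearly all from LYZ and CD68. The mean of LYZ fell from 76.4 to 8.62 CPM, while that of CD68 rose from 43.6 to 81.8 CPM. Endothelial markers summed to 0 to 12.4 and 4.96 to 42.7 CPM, with CDH5, TEK and CLDN5 at 0.

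Promoter windows from RefSeq (GRCh38.p14; 250 bases before to 50 after a gene's start) were held for 6 of the 9 genes; SLC7A11, GSS and GSR had no entry in the table used. Each window was searched on both strands for TGACNNNGC, the core letters of the antioxidant response element read by the factor NRF2, and for TGATGNAA, core letters of the C/EBP-ATF response element read by ATF4. The antioxidant core was present in the windows of GCLM, GPX2 and GSTP1 and absent from those of GCLC, GPX1 and GPX4, and 13.3% of 35116 promoter windows hold it. The C/EBP-ATF core was in none of the 6, and 3.62% of windows hold it. A single window of SLC3A2, at 1 of its 3 listed starts, held both. Windows of a gene that fell, a gene that was not called and a gene that rose are printed here with their matches in capitals, since the same core letters occur in all 3.
GSTP1 (chr11:67583562-67583861, plus strand): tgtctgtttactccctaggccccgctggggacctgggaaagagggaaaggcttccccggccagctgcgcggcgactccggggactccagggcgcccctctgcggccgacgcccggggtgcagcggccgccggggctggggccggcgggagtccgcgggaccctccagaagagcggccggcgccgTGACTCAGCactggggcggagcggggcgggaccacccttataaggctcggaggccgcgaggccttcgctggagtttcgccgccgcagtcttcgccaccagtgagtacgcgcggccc
GCLM (chr1:93909381-93909680, minus strand): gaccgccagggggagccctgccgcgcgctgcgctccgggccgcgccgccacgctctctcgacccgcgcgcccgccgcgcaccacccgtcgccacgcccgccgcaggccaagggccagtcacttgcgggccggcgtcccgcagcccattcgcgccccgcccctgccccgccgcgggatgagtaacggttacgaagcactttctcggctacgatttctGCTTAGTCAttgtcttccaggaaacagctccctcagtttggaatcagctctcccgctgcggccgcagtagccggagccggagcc
SLC3A2 (chr11:62881449-62881748, plus strand): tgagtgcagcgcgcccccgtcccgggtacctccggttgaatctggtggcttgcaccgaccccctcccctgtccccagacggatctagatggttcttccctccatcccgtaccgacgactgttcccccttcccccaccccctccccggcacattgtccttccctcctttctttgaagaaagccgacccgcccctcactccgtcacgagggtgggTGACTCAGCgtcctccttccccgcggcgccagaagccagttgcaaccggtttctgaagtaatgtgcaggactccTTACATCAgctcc
The GSTP1 match began 66 bases before the start of the gene, the GCLM match (on the opposite strand) 34 bases before it and the SLC3A2 match 37 bases before it; the C/EBP-ATF match of SLC3A2 lay on the opposite strand, from 37 bases after the start. In GSTP1 and SLC3A2 the match also spells TGACTCA, the usual site of AP-1. A match is a run of letters and not a measured binding site.

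GPX1, GPX2 and GPX4 share a feature that the other 6 genes lack. Their active site is a selenocysteine, encoded by a TGA in the reading frame, which is otherwise a stop codon. The 30 bases around that codon, from the GENCODE 29 transcripts, are shown with the TGA in capitals.
GPX1, codon 49 of 203: gtggcgtccctcTGAggcaccacggtccgg
GPX2, codon 40 of 190: gtggcttcgctcTGAggcacaaccacccgg
GPX4, codon 73 of 197: gtggcctcccagTGAggcaagaccgaagta
The GPX1 and GPX2 windows have the same letter at 24 of 30 positions, GPX1 and GPX4 at 19 and GPX2 and GPX4 at 18.

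SLC7A11 (ENSG00000151012.13) encodes xCT, the transport chain of the cystine-glutamate antiporter. Its level in control replicates 1 to 5 was 84.6, 109.6, 82.0, 113 and 91.0 CPM, and in starved replicates 1 to 5 it was 15.2, 24.8, 18.6, 30.5 and 21.2 CPM. The highest starved library stood well under the lowest control library. The mean fell from 96.1 ± 14.4 to 22.1 ± 5.89 CPM (SD, n = 5 per group), a log2 change of -2.10 with an SE of 0.27 (limma adjusted p = 1.54e-06). These means rest on 156 counts over the control and 27 over the starved libraries, and the pooled ratio of starved to control was 0.205, with an exact binomial 95% interval of 0.131 to 0.311 that covers counting error only. SLC7A11-AS1, an overlapping antisense gene, had 3 and 2 counts over the groups.

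SLC3A2 (ENSG00000168003.16) encodes the heavy chain, 4F2hc, that brings xCT and several other amino acid carriers to the plasma membrane. Control libraries held 106, 156, 194, 162 and 185 CPM and starved libraries 657, 665, 693, 604 and 695 CPM, in replicate order. All starved libraries lay above all control libraries. The mean rose from 160.5 ± 34.3 to 663 ± 37.0 CPM, a log2 change of 2.07 with an SE of 0.14 (limma adjusted p = 9.82e-11). The 2 chains of the antiporter thus changed in opposite directions, and the difference was tested as a ratio within each library. The log2 ratio of SLC7A11 to SLC3A2 went from -0.72 ± 0.39 in control to -4.88 ± 0.42 in starved libraries, a difference of -4.17 (two-sided exact permutation p = 0.00794, the smallest that 5 against 5 libraries allow; 0.0119 adjusted over 3 ratios).

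**Figure D1:**
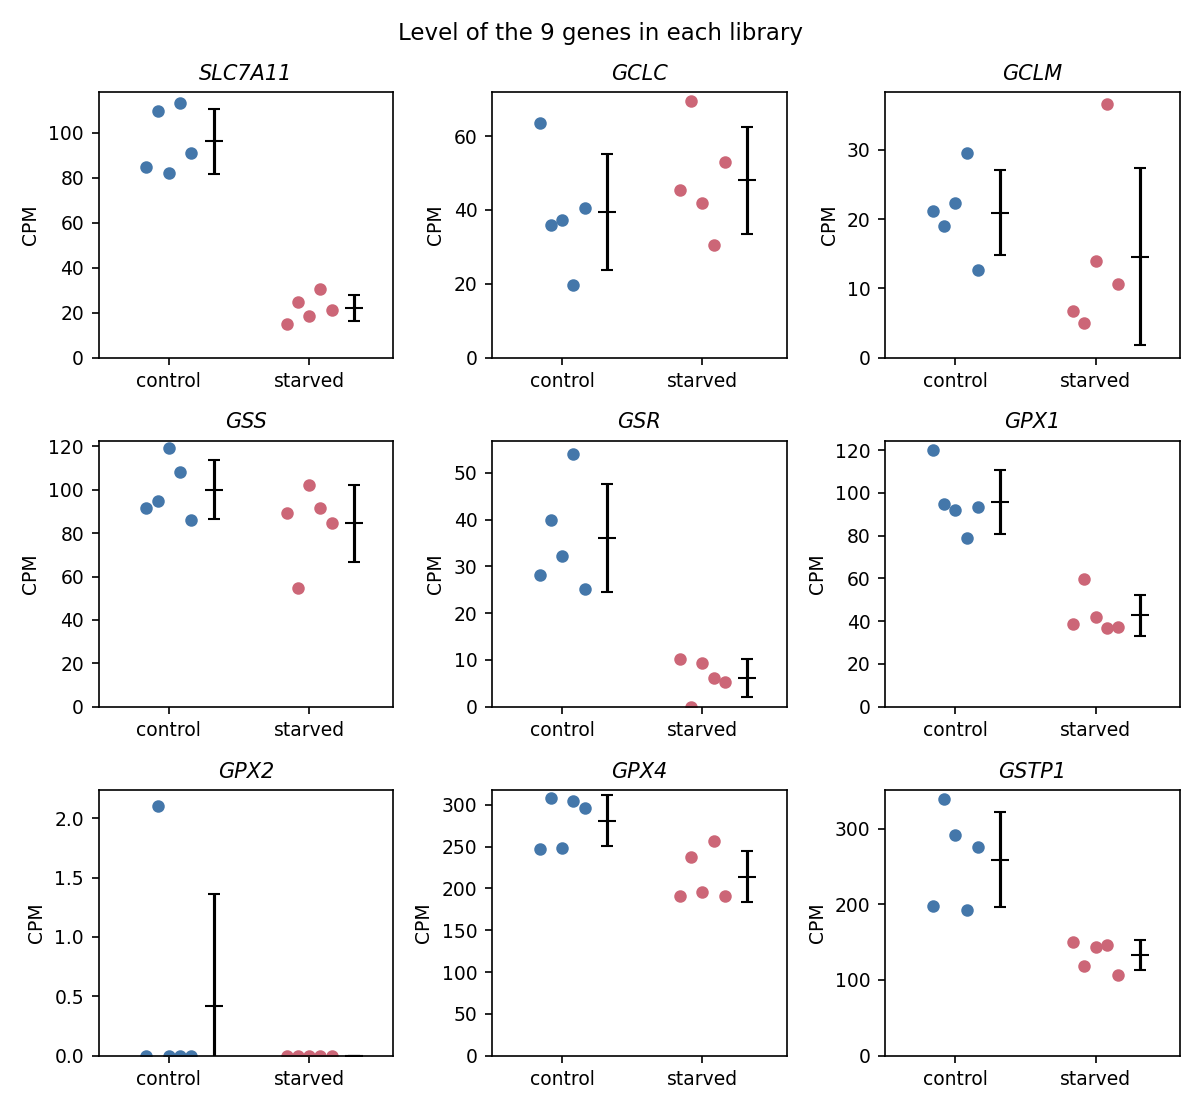
Level in CPM (vertical axes, each starting at 0) of the 9 genes in the 5 control and 5 starved libraries; points are libraries in replicate order and bars the mean with its SD. The groups separate fully for SLC7A11, GSR, GPX1 and GSTP1, overlap for GCLC, GCLM, GSS and GPX4, and GPX2 has a single count.

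Glutamate-cysteine ligase catalyses the first and rate-limiting step of glutathione synthesis, with GCLC as its catalytic and GCLM as its modifier subunit. GCLC (ENSG00000001084.10) held 63.5, 35.8, 37.3, 19.7 and 40.4 CPM in control and 45.5, 69.4, 41.8, 30.5 and 53.1 CPM in starved libraries. The ranges overlapped almost fully. Its means were 39.3 ± 15.7 and 48.1 ± 14.5 CPM, and the log2 change of 0.32 (95% interval -0.34 to 0.99, limma adjusted p = 0.435) leaves room for a rise of nearly the full log2 unit or a small fall. GCLM (ENSG00000023909.9) held 21.2, 18.96, 22.4, 29.5 and 12.6 CPM in control libraries. Its starved libraries held 6.74, 4.96, 13.9, 36.6 and 10.6 CPM. Starved replicate 4 exceeded every control library, while 3 of the other 4 starved libraries lay below every control library. With 32 counts over the control and 16 over the starved libraries the depth was low, and the log2 change of -0.77 (95% interval -1.89 to 0.35, limma adjusted p = 0.264) was not called. Without starved replicate 4 it was -1.17 (limma adjusted p = 0.0797).

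The ratio of the ligase subunits was compared in the same way. The log2 ratio of GCLC to GCLM was 0.84 ± 0.87 in control and 1.93 ± 1.43 in starved libraries, and the difference of 1.09 did not pass (two-sided exact permutation p = 0.198, adjusted p = 0.198). Without starved replicate 4 the difference was 1.64 (exact permutation p = 0.0397, unadjusted), so a single library decided that call. GSS (ENSG00000100983.9), glutathione synthetase, adds the glycine in the second step. It held 91.7, 94.8, 119, 108 and 85.9 CPM in control and 89.3, 54.6, 102, 91.5 and 84.9 CPM in starved libraries. Apart from starved replicate 2, the starved libraries lay at or close to the control range. Its means were 100.0 ± 13.5 and 84.5 ± 17.9 CPM, with a log2 change of -0.26 (95% interval -0.67 to 0.15, limma adjusted p = 0.302), close to the median of all tested genes.

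GSR (ENSG00000104687.12), glutathione reductase, regenerates glutathione from its oxidised form with NADPH. Its control libraries held 28.2, 40.0, 32.3, 54.1 and 25.3 CPM. Its starved libraries held 10.1, 0, 9.30, 6.10 and 5.31 CPM. No starved library reached the lowest control library, and starved replicate 2 was at 0, where 3 counts would correspond to 14.9 CPM. In starved replicates 1 to 5 the counts were 6, 0, 2, 1 and 1, so only starved replicate 1 reached 3 counts. The mean fell from 36.0 ± 11.6 to 6.16 ± 4.00 CPM, a log2 change of -2.69 with an SE of 0.63 (limma adjusted p = 0.00156). The starved value rests on 10 counts against 57 in control libraries, a pooled ratio of 0.208 (exact binomial 95% interval 0.0948 to 0.412, counting error only). Without starved replicate 2 the log2 change was -2.08 (limma adjusted p = 0.00132).

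**Figure D2:**
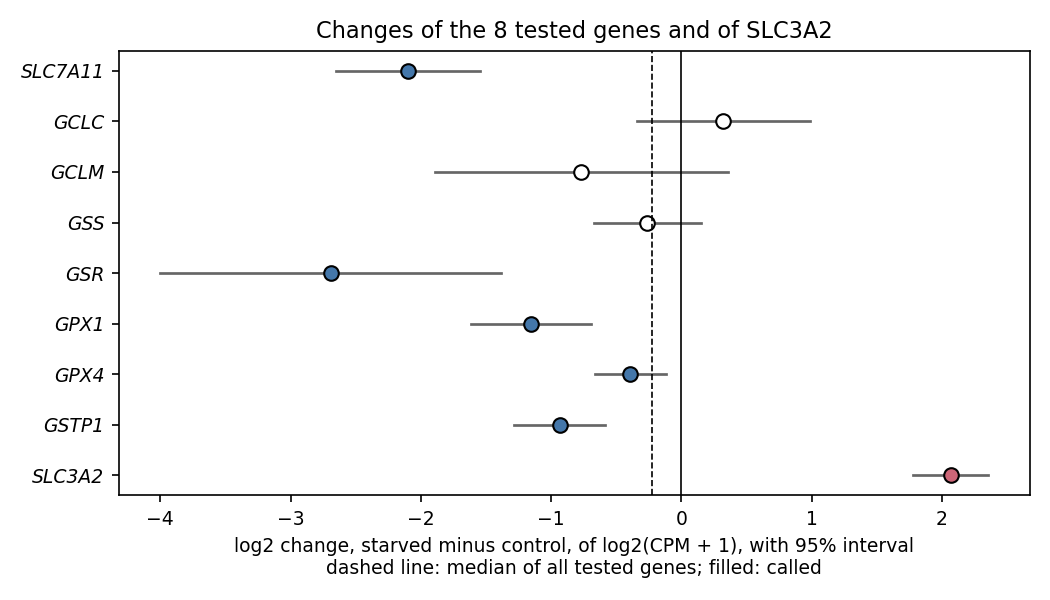
Change of the 8 tested genes and of SLC3A2 between starved and control libraries on the log2(CPM + 1) scale, with 95% intervals from limma; filled points were called, open ones were not, and the dashed line marks the median of all tested genes at -0.22. SLC7A11 and GSR lie farthest to the left, the intervals of GCLC, GCLM and GSS cross 0, and SLC3A2 lies on the other side at 2.07.

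GPX1 (ENSG00000233276.3) encodes the cytosolic glutathione peroxidase that reduces hydrogen peroxide. It held 119.9, 94.8, 92.0, 78.7 and 93.5 CPM in control and 38.8, 59.5, 41.8, 36.6 and 37.2 CPM in starved libraries. The groups did not overlap, and starved replicate 2 was the closest to control. The mean fell from 95.8 ± 14.95 to 42.8 ± 9.58 CPM, or 2.24-fold, which is -1.16 ± 0.22 (SE) in log2 (limma adjusted p = 0.000243). Its pseudogene GPX1P1 had 0 counts in all libraries.

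GPX4 (ENSG00000167468.16) encodes the peroxidase that reduces lipid hydroperoxides in membranes and holds back ferroptosis, an iron-dependent form of cell death. It held 247, 308, 249, 305 and 296 CPM in control and 190.5, 238, 195, 256 and 191 CPM in starved libraries. Starved replicate 4 lay above control replicates 1 and 3, so the groups overlapped. The mean fell from 280.8 ± 30.5 to 214 ± 30.7 CPM, or 1.31-fold, which is -0.39 ± 0.13 (SE) in log2 (limma adjusted p = 0.0194). The call was lost in 6 of 21 alternatives, among them TMM scaling (limma adjusted p = 0.0509) and DESeq2 (adjusted p = 0.0640), and 44.3% of all tested genes had a more negative change. The log2 ratio of GPX1 to GPX4 went from -1.55 ± 0.34 to -2.31 ± 0.29, a difference of -0.76 (exact permutation test, two-sided, p = 0.00794 and 0.0119 after adjustment for 3 ratios, with the first at its lower limit), so GPX1 fell more than GPX4. GPX2 (ENSG00000176153.11), a peroxidase of the gut epithelium, had 1 count, in control replicate 2, and 0 in the other 9 libraries, and a detection floor of 3 counts summed per group equals 1.85 CPM (control) and 2.20 CPM (starved).

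GSTP1 (ENSG00000084207.15) encodes the pi-class S-transferase, which joins glutathione to electrophiles. It held 198, 339, 291, 192 and 275 CPM in control and 150.02, 119, 144, 146 and 106 CPM in starved libraries. Control libraries spread widely, but the lowest of them still exceeded the highest starved library. The mean fell from 259 ± 63.2 to 133 ± 19.4 CPM, or 1.95-fold, which is -0.93 ± 0.17 (SE) in log2 (limma adjusted p = 0.000127). Among 7004 other genes averaging 20 CPM or more, those whose course over the 10 libraries lay nearest to SLC7A11 were SMARCE1, KRT18P10 and PLK1, at root mean square differences of 0.20, 0.24 and 0.25 in log2(CPM + 1) relative to the control mean. SMARCE1 is a chromatin remodelling subunit, PLK1 a mitotic kinase and KRT18P10 a keratin pseudogene whose reads may come from its parent.

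**Figure D3:**
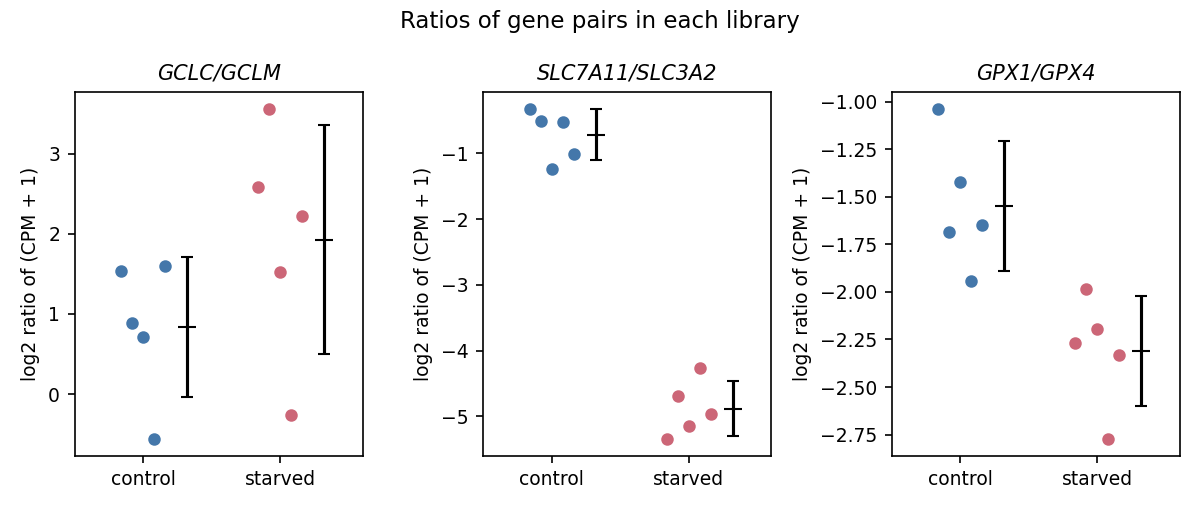
Log2 ratio of (CPM + 1) of 3 gene pairs in each library, with means and SDs; vertical axes differ. The ratios SLC7A11/SLC3A2 and GPX1/GPX4 are lower in every starved library than in any control library, and the GCLC/GCLM ratios overlap.

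The rest of the pathway was described with 10 lists by role, holding 149 genes, of which 101 were tested. These lists, too, were chosen with earlier results of these data known. Of the 101 tested genes 45 were lower in starved cells and 16 higher, to be read against 26.1% and 17.2% of all tested genes. Cysteine supply had 6 tested genes, of which 4 fell and SLC3A2 rose (median log2 change -1.95). MPST, a sulfurtransferase of cysteine breakdown, fell from 44.2 ± 13.3 to 1.01 ± 2.26 CPM, -4.91 ± 0.70 (SE) in log2 (limma adjusted p = 7.14e-06), with all of its 3 starved counts in starved replicate 1. The sulfurtransferase TST, the methionine synthase MTR and the S-adenosylmethionine synthetase MAT2A, named after their values were seen, fell as well. CTH, which makes cysteine by transsulfuration, had 2 counts over the control and 8 over the starved libraries and was not tested. CBS was not found under that symbol among the genes of the deposited values.

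Glutathione breakdown had 7 tested genes, of which 2 (28.6%) fell and 0 rose. The share that fell was close to the 26.1% of all tested genes, of which 17.2% rose. GGCT, which splits gamma-glutamyl amino acids, fell from 94.6 ± 25.9 to 28.4 ± 13.1 CPM (limma adjusted p = 6.2e-05) and the leucine aminopeptidase LAP3 from 40.7 ± 9.16 to 11.5 ± 7.21 CPM (limma adjusted p = 0.00779). CHAC1, which degrades glutathione inside the cell and is a known target of the ATF4 pathway, had 5 and 16 counts over the groups and was not called (3.83 ± 2.77 and 12.7 ± 8.55 CPM, limma adjusted p = 0.0980). GGT1, the cell surface enzyme that opens extracellular glutathione, had 1 and 0 counts.

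Tested genes in the lists of glutathione-using and related enzymes fell in most cases and rose in 0, against 26.1% lower and 17.2% higher among all tested genes. Of 8 other tested S-transferases 6 fell (median log2 change -1.29): MGST1, a membrane-bound member, went from 187 ± 18.8 to 50.2 ± 23.4 CPM (limma adjusted p = 2.63e-06) and the omega-class GSTO1 from 241 ± 17.98 to 103 ± 23.7 CPM (limma adjusted p = 1.49e-06). GPX8, the only other peroxidase tested, fell from 15.8 ± 3.97 to 4.22 ± 2.42 CPM (limma adjusted p = 0.0256). Glutaredoxins, glyoxalases and related enzymes, not all of them glutathione-dependent, fell in 7 of 10 cases (median -1.13). GLRX, the cytosolic glutaredoxin that removes glutathione from proteins, went from 42.3 ± 13.6 to 16.3 ± 4.14 CPM (limma adjusted p = 0.00867), the iron-sulfur chaperone GLRX3 from 198 ± 21.1 to 97.8 ± 22.6 CPM (limma adjusted p = 4.64e-05) and the prostaglandin E synthase PTGES2 from 318 ± 38.2 to 65.6 ± 26.5 CPM (limma adjusted p = 4.12e-08).

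Of 9 tested genes of glutathione and conjugate transport 5 (55.6%) fell and 0 rose (median -1.98). Among all tested genes 26.1% fell and 17.2% rose. The efflux pump ABCC3 went from 184 ± 9.15 to 47.7 ± 16.2 CPM (limma adjusted p = 2.94e-07). ABCC1, the main exporter of glutathione conjugates, was not called (93.4 ± 27.8 and 69.1 ± 17.5 CPM, limma adjusted p = 0.164). The list around NADPH, which GSR consumes, had 17 tested genes, of which 10 (58.8%) fell and 0 rose (median -1.23). Not all genes of this list make NADPH themselves, TKT and TALDO1 being among those that do not. TKT and TALDO1, enzymes of the non-oxidative branch of the pentose phosphate pathway, fell from 193 ± 20.5 to 96.0 ± 25.1 and from 199.6 ± 21.1 to 84.1 ± 31.6 CPM (limma adjusted p = 6.23e-05 and 1.84e-05).

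Calls among genes of the selenium side of GPX1 and GPX4 were about as frequent as among all tested genes (26.1% lower, 17.2% higher). Of 13 tested genes of selenoprotein synthesis 4 (30.8%) fell and 2 (15.4%) rose, with a median log2 change of -0.29. LRP8, a receptor for the selenium carrier selenoprotein P, fell from 57 to 2 counts (36.2 ± 14.4 to 1.56 ± 2.64 CPM, limma adjusted p = 5.27e-05), while the seryl-tRNA synthetase SARS, which also charges the selenocysteine tRNA with serine, rose from 105 ± 11.9 to 313 ± 46.3 CPM (limma adjusted p = 1.6e-08). SEPHS2, which makes the selenium donor, was not called (61.7 ± 18.9 and 50.1 ± 14.3 CPM, limma adjusted p = 0.414). Among 12 other selenoproteins tested, 3 (25%) fell and 2 (16.7%) rose (median 0.06). TXNRD1, cytosolic thioredoxin reductase, fell from 357 ± 38.8 to 189.9 ± 35.2 CPM (limma adjusted p = 1.2e-05) and SELK, an endoplasmic reticulum selenoprotein, rose from 59.9 ± 23.7 to 138 ± 19.9 CPM (limma adjusted p = 0.000139).

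**Figure D4:**
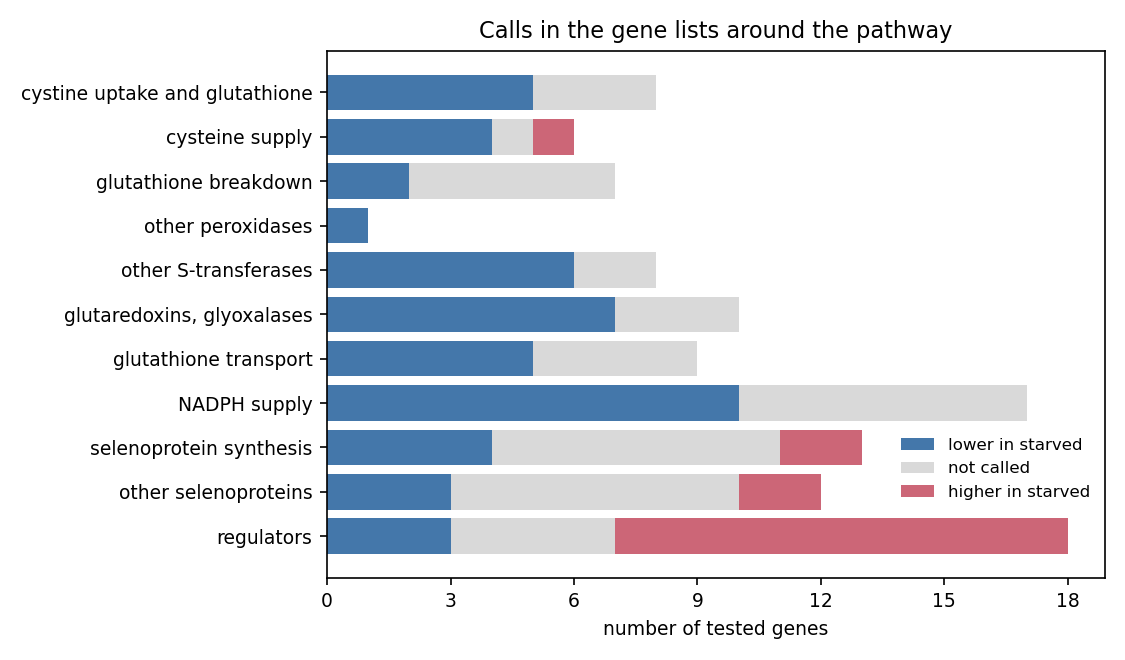
Number of tested genes in each list (horizontal axis) that were called lower, not called or called higher in starved libraries. Calls toward higher levels are concentrated among the regulators, 11 of 18, while the enzyme lists without SLC3A2 and the selenium genes have 0.

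Of 18 tested regulators known to act on these genes 11 (61.1%) rose and 3 (16.7%) fell (median log2 change 0.98). Among all tested genes 17.2% rose and 26.1% fell. NFE2L2 encodes NRF2, the main activator of SLC7A11, GCLC, GCLM, GSR and GSTP1. It held 268, 160.1, 221, 133 and 189.6 CPM in control and 528, 511, 637, 421 and 494 CPM in starved libraries, with no overlap, and rose 2.66-fold (log2 change 1.44, SE 0.16, limma adjusted p = 2.43e-07). KEAP1, the adaptor that marks NRF2 for degradation, held 42.3, 65.3, 54.7, 54.1 and 48.0 CPM in control and 11.8, 9.92, 23.2, 0 and 26.5 CPM in starved libraries. Its mean fell from 52.9 ± 8.58 to 14.3 ± 10.7 CPM (limma adjusted p = 0.00431). These are mRNA levels, and the amount or activity of the NRF2 protein was not measured.

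ATF4, which induces SLC7A11 and SLC3A2 in amino acid shortage, rose from 80.8 ± 9.34 to 443 ± 28.8 CPM (limma adjusted p = 2.43e-12), and its partner CEBPB from 61.2 ± 6.71 to 319 ± 25.8 CPM (limma adjusted p = 2.54e-11). ATF3, described as a repressor of SLC7A11, had 2 and 44 counts over the groups and rose (limma adjusted p = 2.63e-05). BACH1, a repressor that competes with NRF2, rose from 142 ± 24.9 to 210.4 ± 47.9 CPM with overlapping groups (limma adjusted p = 0.00924), and the small Maf partners MAFF, MAFG and MAFK all rose, MAFF from 9.89 ± 10.1 to 186 ± 16.98 CPM. ATF3, BACH1 and the Maf genes were named after their values were seen.

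**Figure D5:**
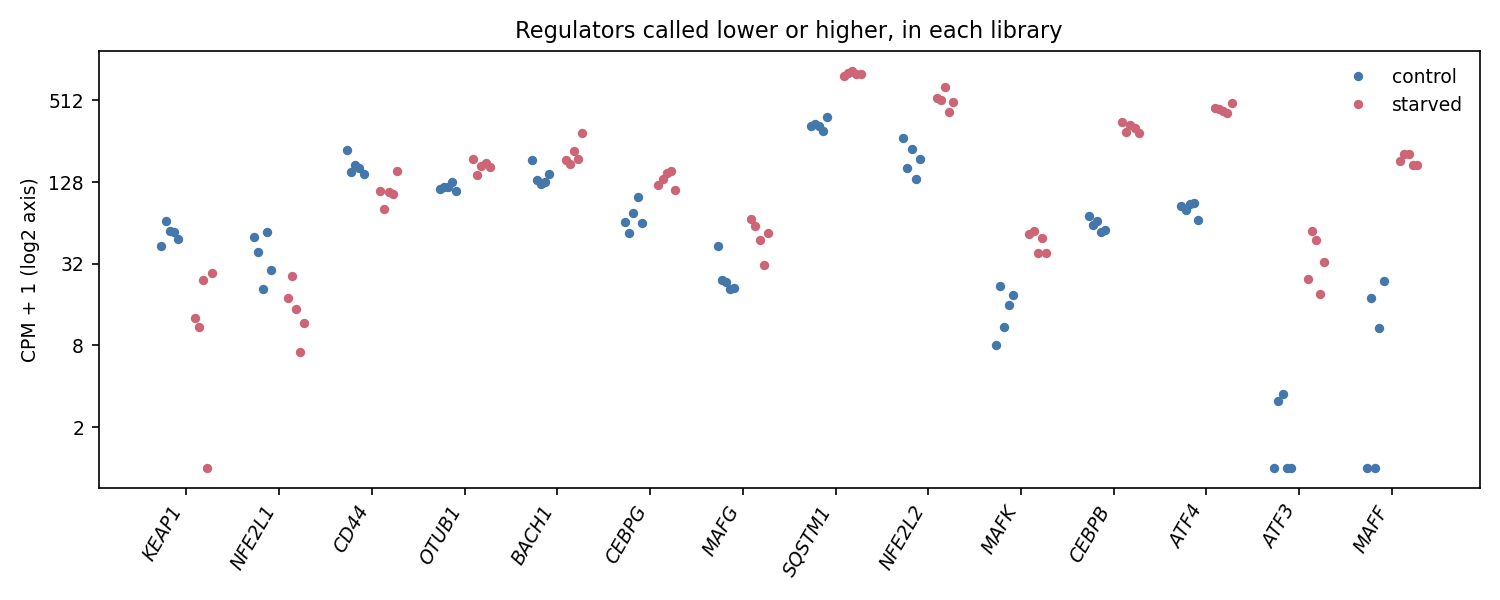
Level of the 14 regulators that were called, 3 lower and 11 higher, in each library as CPM + 1 on a log2 axis, ordered by their log2 change. KEAP1 stands at the falling end on the left, NFE2L2 and ATF4 among the rising genes toward the right, and some libraries of KEAP1, ATF3 and MAFF are at 0 CPM.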

How the data were processed

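RNA of AsPC-1 cells was made into QIAseq UPX 3' Transcriptome libraries, per the labels. The deposited values are CPM per gene, and the build is hg19 per the submitters' processing notes. Aligner, counter, strand setting and use of molecular identifiers: not given in the sources used here. Every value above 0 (100%) was a whole multiple of its column's smallest value (relative tolerance 1e-06), which gave back whole counts. Groups follow the titles of the 10 libraries.

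limma 3.58.1 (R 4.3.3; trend, log2(CPM + 1), two-sided, no covariates) was fitted to the 11202 genes averaging 5 CPM or more; calls had a Benjamini-Hochberg adjusted p under 0.05. It called 2921 genes lower and 1929 higher. edgeR 4.0.16 quasi-likelihood on the recovered counts called 2869 and 2483, and DESeq2 1.42.0 called 2399 and 2025. Fold changes quoted as such are of mean CPM; log2 changes are differences of mean log2(CPM + 1), so for genes of few counts they can be larger or smaller than the log2 of that fold. The limma and edgeR fits, but not DESeq2 or the permutation tests, were also run on simulated counts with fewer changed genes than these data. Pair ratios were compared with exact permutation tests. The 9 genes and all lists were chosen with earlier results of these data known. Named genes were the 9, 13 fixed by name, the 2 of smallest p in each list and the 3 nearest to SLC7A11; others are marked. A few genes that this rule or these lists hold are counted but not reported here by name. No 2 libraries of a group agreed within sampling noise (chi-square per gene at least 1.265). Overlapping genes came from GENCODE 29 by position, and pseudogenes by name only.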

Additional observations from a re-analysis of the deposited data

Results flagged for a closer look

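Among 72 groups of 5 libraries from the named genes, 10 held a library far from the other 4 by Dixon's gap criterion (95% critical value 0.71); chance flags about 5% of groups, and at counts this low a single read can do so. Among the 9 genes these were GCLM in starved replicate 4 (36.6 CPM, others 4.96 to 13.9 CPM), GPX1 in starved replicate 2 (59.5 CPM, others 36.6 to 41.8 CPM) and GPX2 in control replicate 2 (2.11 CPM, others 0). Among the other genes they were GGT1 in control replicate 4 (4.92 CPM, others 0), MPST in control replicate 1 (21.2 CPM, others 44.3 to 53.1 CPM) and MPST in starved replicate 1 (5.06 CPM, others 0). GPX8 stood out in control replicate 5 (22.7 CPM, others 12.6 to 14.9 CPM) and in starved replicate 2 (0 CPM, others 4.65 to 6.10 CPM). GSTO1 did so in starved replicate 3 (144 CPM, others 84.3 to 99.5 CPM) and LRP8 in starved replicate 4 (6.10 CPM, others 0 to 1.69 CPM). The causes were not tested.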

How the results depend on the processing

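Over 21 alternatives the number of genes called lower was 4 or 5, and 0 were called higher. These were 2 pseudocounts, 2 filters, 3 scalings, edgeR, DESeq2, a replicate block, each library left out, and control replicates 1 and 2 left out together. Control replicates 1 and 2 have label numbers 76 and 88, and the others run from 5 to 89 in library order. The meaning of these numbers is not stated. The calls of SLC7A11, GSR, GPX1 and GSTP1 and of SLC3A2 held in all 21. GPX4 lost its call without a filter (limma adjusted p = 0.0556), with TMM or median-of-ratios scaling (0.0509 and 0.0655), with DESeq2 (0.0640) and without control replicate 2 or starved replicate 1 (0.0530 and 0.0507); over all alternatives its log2 change was -0.46 to -0.31. GCLC, GCLM and GSS were called in none; GCLM is not tested under the filter at 20 CPM. Quantile normalization moved the median of all genes from -0.22 to -0.02.

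Replicate numbers did not pair the libraries (correlations of same-numbered deviations -0.02 to 0.02). The replicate block left the 5 calls in place. Sign flips within replicate numbers, a replicate block for the ratios, cannot go below 0.0625: SLC7A11/SLC3A2 at -4.17 and GPX1/GPX4 at -0.76 both gave that p, as did GCLC/GCLM at 1.09. Leaving out single libraries moved the GCLC/GCLM difference over 0.68 to 1.64, the first without starved replicate 2 (exact permutation p = 0.381) and the second without starved replicate 4 (p = 0.0397). The other causes were not tested. Depth limits GCLM, GSR and GPX2 most.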
